A study of Mus musculus with 12 samples.

Results

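Aqp1, the gene of the water channel aquaporin-1, was followed across 12 trigeminal ganglion libraries beside Tmem72, Kcnj13, Ttr and Folr1, 4 genes known as markers of the choroid plexus. The 5 genes, of 55416 counted, were chosen by their measured levels in knockout and control libraries, after Aqp1 had been seen to be lower in the knockouts. The question was whether Aqp1 went along with the choroid plexus genes or varied alone. The values that separate knockouts from controls are therefore descriptions of the genes so chosen. Estimates and intervals of that difference are printed to show size and precision, and nothing is read from a member passing or missing a threshold there.

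The choroid plexus is the folded epithelium in the brain ventricles that makes cerebrospinal fluid. Its cells hold Aqp1 in the apical membrane, where it passes water, and secrete transthyretin, the Ttr product that carries thyroid hormone and retinol-binding protein. Aqp1 is not specific to that epithelium: it is also made in the endothelium of many vessels outside the brain, in red cells and in small sensory neurons of the trigeminal and dorsal root ganglia.

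The libraries came from adult C57Bl6 mice, 1 month after injection. The 6 inducible knockouts (iKO) carried the Rosa26Cre ERT2 allele, which places a tamoxifen-dependent recombinase under a locus active in nearly all cells, together with Prdm12 Fl/Fl, and all received tamoxifen. iKO 1 to 3 were female and iKO 4 to 6 male. Among the 6 controls, 1 to 4 also received tamoxifen: control 1 (female) was Rosa26Cre ERT2; Fl/+, controls 2 (female) and 3 (male) were +/+; Fl/+, and control 4 (male) was Rosa26Cre ERT2; +/+. Controls 5 and 6 were males with the iKO genotype that received corn oil. The injected agent and the genotype thus differ between controls, and Cre itself was absent from controls 2 and 3.

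Prdm12, the deleted gene, averaged 106 ± 28.4 CPM (the count scaled to the library total, TMM-normalised, ± SD, n = 6) in control libraries against 16.8 ± 1.97 CPM in knockouts, without overlap. Library totals ran from 13207526 to 24178970 counts. A count of 0 would still allow 0.124 to 0.227 CPM, a limit taken as 3 counts that covers counting error only. Nothing in the labels says that the replicates came from separate litters or days, so p-values measure the spread between these libraries.

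Aqp1 (ENSMUSG00000004655, chromosome 6) stood below all controls in each of the 6 iKO libraries. Control libraries held 205 CPM at the lowest, 211 at the median and 229 at the highest, and iKO libraries 117, 149 and 161 CPM. The lowest library of all was iKO 2, and the other iKO libraries lay between 141 and 161 CPM. Mean levels were 214 ± 9.78 CPM in controls and 146 ± 16.1 CPM in iKO (SD, n = 6 each), and the knockout mean was 68.0% of the control mean. Between 1536 and 4367 reads per library stood behind these values. In 16637 tested genes, 87 (0.523%) likewise had all 6 iKO libraries below all 6 controls, and nothing is read from Aqp1 being among them, since it was picked for this.

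Tmem72 (ENSMUSG00000048108, chromosome 6) encodes a transmembrane protein of the choroid plexus and kidney whose function is not settled. Control libraries held 48.6 CPM at the lowest, 60.2 at the median and 72.9 at the highest, and iKO libraries 44.3, 47.4 and 55.4 CPM. The groups overlapped only through control 6, the lowest control, since the other 5 controls were above every iKO library. Mean levels were 61.8 ± 8.85 CPM in controls and 49.1 ± 4.73 CPM in iKO (SD, n = 6 each), or 79.5% of control.

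Kcnj13 (ENSMUSG00000079436, chromosome 1) encodes Kir7.1, an inwardly rectifying potassium channel of the apical membrane of choroid plexus and retinal pigment epithelium. Control libraries held 1.38 CPM at the lowest, 1.99 at the median and 3.07 at the highest, and iKO libraries 0.463, 1.20 and 1.82 CPM. Of the iKO libraries, 5 lay below the lowest control, and iKO 2 was above it. The means were 2.16 ± 0.644 and 1.16 ± 0.466 CPM (SD, n = 6 each), from 9 to 54 reads per library. In the GENCODE annotation 49.1% of the Kcnj13 exon bases lie within Gigyf2 exons on the opposite strand, and the library kit does not mark strand. Reads of Gigyf2 can thus be mixed into the Kcnj13 count, or such reads left out, and the Kcnj13 level is uncertain.

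**Figure D1:**
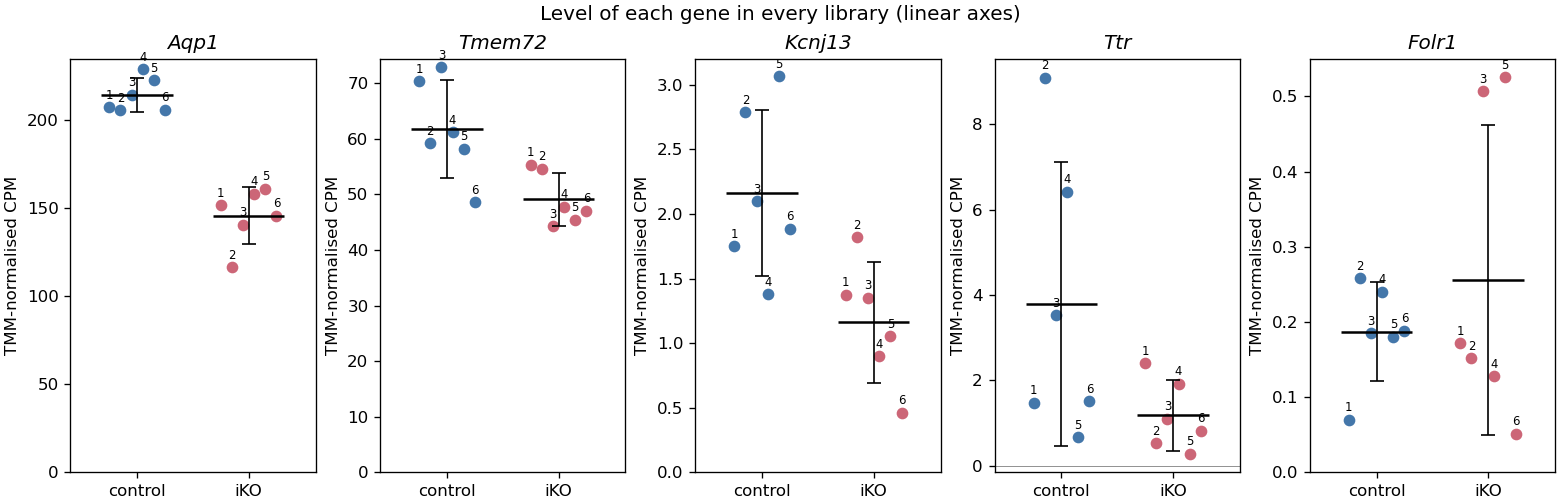
CPM of Aqp1, Tmem72, Kcnj13, Ttr and Folr1 in each of 6 control and 6 iKO libraries, with a panel for each gene. Points are libraries marked by replicate number, lines are means and bars SD. The Aqp1 points of the groups do not overlap, those of the other 4 genes do, and the Ttr controls spread from 0.662 to 9.09 CPM.

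Promoters of the 3 genes just described are shown here, since no promoter sequence was available for Ttr and Folr1. RefSeq sequence on GRCm38.p6 was available for these 3, from 250 bases before the annotated start to 50 after it, read along each gene's own strand. Capitals mark matches to the motifs searched on both strands, which were the TATA box TATAAA, the GC box core GGGCGG and the letters TAATCC (a core bound by Otx factors, which are known in choroid plexus). The Aqp1 window lies at chr6:55336049-55336348 on the plus strand, that of Tmem72 at chr6:116716709-116717008 on the minus strand and that of Kcnj13 at chr1:87394680-87394979 on the minus strand.
Aqp1: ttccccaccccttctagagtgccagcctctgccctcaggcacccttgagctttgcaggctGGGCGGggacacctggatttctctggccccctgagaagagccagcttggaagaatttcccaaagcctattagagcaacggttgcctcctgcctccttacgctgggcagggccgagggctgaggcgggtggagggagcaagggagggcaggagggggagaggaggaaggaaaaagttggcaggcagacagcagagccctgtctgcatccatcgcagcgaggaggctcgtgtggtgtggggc
Tmem72: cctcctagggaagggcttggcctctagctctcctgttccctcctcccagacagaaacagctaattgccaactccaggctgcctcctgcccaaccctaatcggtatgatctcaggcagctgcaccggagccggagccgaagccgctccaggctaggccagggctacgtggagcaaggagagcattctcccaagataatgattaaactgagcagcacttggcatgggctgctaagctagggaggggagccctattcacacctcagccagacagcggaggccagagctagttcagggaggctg
Kcnj13: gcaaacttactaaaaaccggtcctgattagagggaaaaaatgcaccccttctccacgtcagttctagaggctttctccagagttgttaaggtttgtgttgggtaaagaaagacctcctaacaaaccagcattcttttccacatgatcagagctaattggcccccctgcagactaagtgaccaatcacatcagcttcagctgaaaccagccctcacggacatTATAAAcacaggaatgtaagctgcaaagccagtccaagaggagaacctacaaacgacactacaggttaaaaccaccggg
The Aqp1 window held 1 GGGCGG, 190 bases before the start, and its bases were 62.7% G or C. The Kcnj13 window held 1 TATAAA, 29 bases before the start, and was 46.0% G or C. The Tmem72 window, at 59.0% G or C, matched none of the motifs. Over 32851 RefSeq promoters of this length, 35.7% held GGGCGG, 13.6% TATAAA and 7.06% TAATCC. The letters that matched thus differed between the 3 genes, and neither a match nor its absence says which factor binds there.

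Ttr (ENSMUSG00000061808, chromosome 18) is among the most abundant transcripts of choroid plexus cells, and in these ganglia it was low and uneven. Control libraries held 0.662 CPM at the lowest, 2.51 at the median and 9.09 at the highest, and iKO libraries 0.283, 0.961 and 2.40 CPM. Control 2 was highest and control 4 next, at 6.42 CPM, while control 5 had less than 4 of the iKO libraries. The groups overlapped: 2 of 6 iKO libraries were below the lowest control and 3 controls above the highest iKO library. Mean levels were 3.78 ± 3.33 CPM in controls and 1.18 ± 0.826 CPM in iKO (SD, n = 6 each), from 7 to 176 reads per library.

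Folr1 (ENSMUSG00000001827, chromosome 7), the folate receptor that takes folate across the choroid plexus, was at the edge of detection. Each library held 1 to 13 reads. Controls ran from 0.0701 to 0.258 CPM and iKO libraries from 0.0514 to 0.526 CPM, with 20 reads in all 6 controls and 33 in all 6 iKO. The highest values were in iKO 5 (0.526 CPM) and iKO 3 (0.507 CPM), and the groups overlapped. Folr1 did not pass the filter on low counts, so that 4 of the 5 genes entered the tests over all genes.

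Per length, the members stood far apart. CPM divided by exon length in kilobases (RPKM, with GENCODE exon lengths) were 81.5 ± 3.72 for Aqp1 in controls, 3.60 ± 0.515 for Tmem72, 3.19 ± 2.81 for Ttr, 1.70 ± 0.507 for Kcnj13 and 0.0815 ± 0.0286 for Folr1 (SD, n = 6). In iKO the levels were 55.4 ± 6.13, 2.86 ± 0.276, 0.993 ± 0.696, 0.913 ± 0.367 and 0.111 ± 0.0897 RPKM in the same order of genes. Tmem72 and Ttr in controls, and Ttr and Kcnj13 in both groups, did not differ in RPKM beyond their spread. The annotated exon length was 17177 bases for Tmem72, against 1186 for Ttr and 1270 for Kcnj13. In CPM, without division by length, Tmem72 (48.6 to 72.9 in controls) was above Ttr (0.662 to 9.09). Aqp1 was the highest and Folr1 the lowest of the 5 in both groups, so the gene that most defines choroid plexus by abundance, Ttr, was below Aqp1 per length in these ganglia.

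In the edgeR fit with sex as a covariate, the log2 fold change of iKO against control was -0.54 ± 0.061 for Aqp1, -0.35 ± 0.091 for Tmem72, -1.04 ± 0.270 for Kcnj13 and -1.78 ± 0.623 for Ttr (± SE). The median over all tested genes was 0.00. Of the 4 members tested, 1 (Aqp1) passed the adjusted threshold of 0.05, where 0.379% of all genes did (0.174% higher and 0.204% lower), and nothing is read from this since the genes were selected on that contrast. The 4 fold changes had the same sign but not the same precision: the Aqp1 interval ran from -0.67 to -0.40 and the Ttr interval from -3.13 to -0.43. Those of Tmem72 (-0.55 to -0.16) and Kcnj13 (-1.62 to -0.45) overlapped both. Whether the 4 genes differ in the size of the change was not tested. Without control 2, the Ttr value was -1.21. In bulk libraries, fewer cells of a type and less RNA per cell cannot be told apart.

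Replicates 1 to 4, all given tamoxifen, differ in genotype, whereas replicates 5 and 6 share sex and genotype and differ in the injected agent. The Aqp1 log2 fold change was -0.56 ± 0.080 in replicates 1 to 4 and -0.48 ± 0.110 in replicates 5 and 6 (SE). For Tmem72 the values were -0.39 ± 0.101 and -0.21 ± 0.136, for Kcnj13 -0.71 ± 0.310 and -1.67 ± 0.424, and for Ttr -1.76 ± 0.583 and -1.03 ± 0.941. Aqp1 passed the adjusted threshold in the first set, where 0.114% of genes did, and no member passed in the second, where 0.00601% did. Those counts use the contrast the genes were selected on, and nothing is read from them. Single libraries moved several of these values. In replicates 1 to 4, Ttr was at -0.75 without control 2. In replicates 5 and 6, Ttr ran from -0.31 without control 6 to -1.94 without iKO 6, with -0.44 without iKO 5. There Tmem72 ran from -0.08 without control 5 to -0.34 without control 6, and Kcnj13 from -1.22 without iKO 6 to -2.41 without iKO 5.

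The difference between the sets was not used in the choice and was tested. It was 0.08 for Aqp1 (95% interval -0.22 to 0.37), 0.18 for Tmem72 (-0.19 to 0.55), -0.95 for Kcnj13 (-2.10 to 0.20) and 0.72 for Ttr (-1.75 to 3.20), on the log2 scale as the second set minus the first. None passed (edgeR, adjusted p = 1.00 each). In all, 0 genes passed (0%), 568 had an unadjusted p under 0.05, and DESeq2 called 5. The Aqp1 interval is the narrowest of the 4, and the Ttr interval leaves room for a large difference either way.

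**Figure D2:**
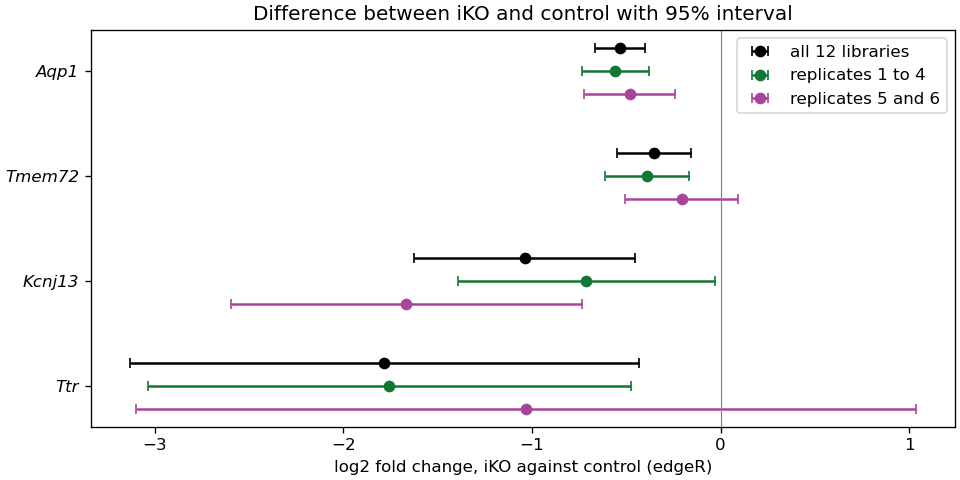
Log2 fold change of iKO against control (x axis) for Aqp1, Tmem72, Kcnj13 and Ttr in all 12 libraries, in replicates 1 to 4 and in replicates 5 and 6. Points are edgeR estimates and bars 95% intervals. All 12 estimates lie below 0, and the bars of Tmem72 and Ttr in replicates 5 and 6 cross it.

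The agent given to the controls can be read within the control group. Aqp1 was 214 ± 11.7 CPM in the 2 corn oil controls and 214 ± 10.7 CPM in the 4 tamoxifen controls (SD). Tmem72 was 53.4 ± 6.77 and 65.9 ± 6.72 CPM, Kcnj13 2.48 ± 0.836 and 2.01 ± 0.599 CPM, and Ttr 1.09 ± 0.599 and 5.13 ± 3.33 CPM. The Aqp1 means of these controls thus differed by less than their spread, whereas both corn oil controls were below all 4 tamoxifen controls in Tmem72. Both corn oil controls are male and have the iKO genotype, so agent, genotype and sex cannot be told apart in this comparison, and it was not tested.

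The sex contrast was also not used in the choice, but sex is not balanced. Controls hold 2 females and iKO 3, and both corn oil controls are male. Sex, agent and control genotype are therefore not fully separable in these values. The male against female log2 difference was 0.13 ± 0.062 for Aqp1, -0.12 ± 0.092 for Tmem72, -0.50 ± 0.271 for Kcnj13 and -0.67 ± 0.615 for Ttr (SE). None passed in edgeR (adjusted p = 0.491, 0.636, 0.538 and 0.699), where 0.108% of genes did. Aqp1 was the only one of the 4 with a positive value. In iKO, Aqp1 was 136 ± 17.9 CPM in 3 females and 155 ± 8.09 CPM in 3 males, and in controls 206 ± 1.40 CPM in 2 females and 218 ± 9.998 CPM in 4 males.

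Whether Aqp1 follows the choroid plexus genes was asked among animals of the same group. Each library's log2(CPM + 1) was taken as a deviation from its group mean, over 12 libraries. Aqp1 deviated most in iKO 2 (-0.31) and iKO 5 (0.15). In iKO 2, the iKO library with the lowest Aqp1, Tmem72 was 54.6 CPM and Kcnj13 1.82 CPM, both in the upper part of their iKO range. Ttr (0.531 CPM, 7 reads) and Folr1 (0.152 CPM, 2 reads) were below their iKO means there, at deviations of -0.42 and -0.11.

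Aqp1 and Tmem72 had Pearson r = -0.20 (permutation p = 0.510) and Spearman rho = -0.05 (permutation p = 0.881). Aqp1 and Kcnj13 had r = -0.44 (permutation p = 0.198) and rho = -0.38 (permutation p = 0.236). These 2 coefficients were negative, opposite to genes that follow each other, but neither passed.

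Aqp1 and Ttr had r = 0.14 (permutation p = 0.597) and rho = 0.01 (permutation p = 0.971). Aqp1 and Folr1 had r = 0.22 (permutation p = 0.692) and rho = 0.09 (permutation p = 0.801), the latter from few reads. Over the 10 pairs of the 5 genes, the adjusted permutation p of r was 0.832 for 9 pairs and 0.907 for the other, and that of rho was 1.00 for all 10.

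The Aqp1 deviations of iKO 2 and iKO 5 were the farthest from the median deviation. Without these libraries, r was 0.23 with Tmem72 (permutation p = 0.538), -0.15 with Kcnj13 (p = 0.696), 0.16 with Ttr (p = 0.669) and -0.27 with Folr1 (p = 0.545). The sign with Tmem72 and with Folr1 therefore rests on those libraries. With 12 libraries an unadjusted p of 0.05 needed r of at least 0.49 in size with Tmem72, 0.61 with Kcnj13, 0.46 with Ttr and 0.69 with Folr1, and weaker relations were not detectable here. The choroid plexus genes did not follow each other detectably either: r was 0.13 for Tmem72 and Kcnj13, 0.19 for Tmem72 and Ttr, and -0.11 for Kcnj13 and Ttr. With Folr1, r was -0.39 for Tmem72 (permutation p = 0.135, the smallest of the 10 pairs), 0.27 for Kcnj13 and 0.03 for Ttr. For the marker lists described below, the mean over tested genes was set beside Tmem72 and Aqp1 in the same way, without a test. Tmem72 had r = -0.14 with the other choroid plexus genes. Its r was lowest for red cells (-0.83) and Schwann cells (-0.82) and highest for nociceptors (0.49) and general sensory neurons (0.45). Aqp1 had r = 0.13 with the other choroid plexus genes. Which cells the Tmem72 reads came from was not tested.

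**Figure D3:**
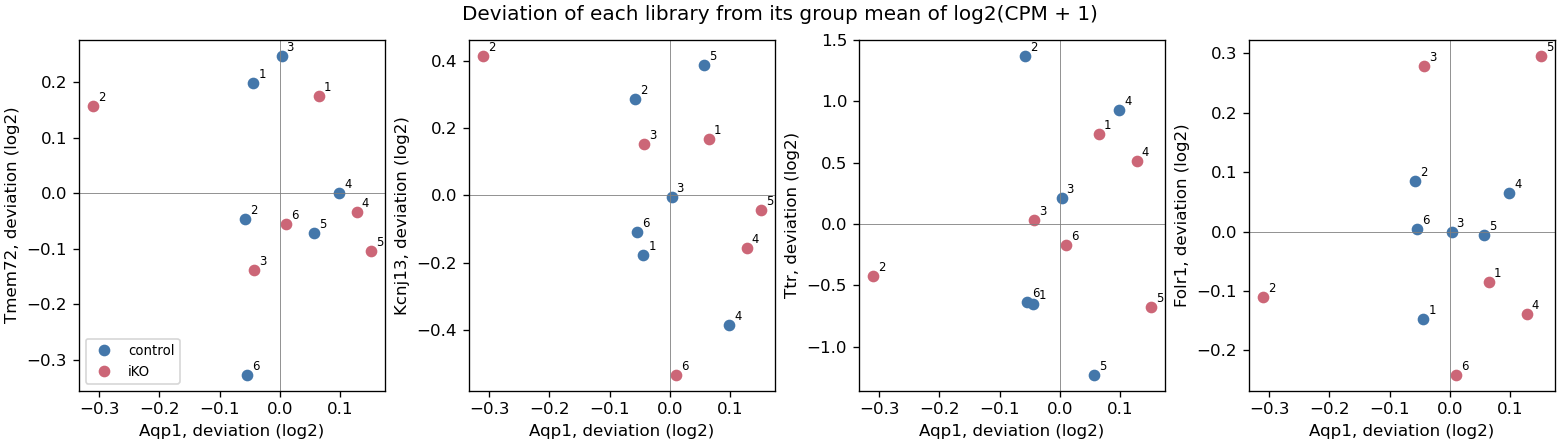
Deviation of Aqp1 from its group mean (x axis, log2 of CPM + 1) against the deviation of Tmem72, Kcnj13, Ttr or Folr1 (y axis) in 12 libraries, with controls and iKO in different colours. Points are libraries marked by replicate number. No panel shows a line of points, and iKO 2 stands at the left with an Aqp1 deviation of -0.31.

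Ratios of reads within a library, which need no scaling between libraries, were compared as well. Aqp1 held 2.13 (iKO 2) to 4.24 (control 6) reads for each Tmem72 read, with means of 3.52 ± 0.514 in controls and 3.00 ± 0.50 in iKO (SD, n = 6 each). Tmem72 held 6.52 (control 2) to 160 (iKO 5) reads for each Ttr read, a range of 24.6-fold. The latter ratio was 6.52 to 87.9 in the controls alone. Aqp1 held 22.6 (control 2) to 568 (iKO 5) reads for each Ttr read, a range of 25.1-fold, and 64.0 to 315 for each Kcnj13 read, a range of 4.92-fold. Tmem72 held 19.0 to 102 reads for each Kcnj13 read, a range of 5.36-fold. The highest Kcnj13 ratios are those of iKO 6, from 9 Kcnj13 reads, and without it the ranges are 2.75-fold for Aqp1 and 2.81-fold for Tmem72. The highest ratios to Ttr are those of iKO 5, from 7 Ttr reads, whereas every library held at least 720 reads of Tmem72 and 1536 of Aqp1. The ratios to Ttr thus ranged most widely and that of Aqp1 to Tmem72 least. These ranges pool both groups, and the part of counting error in them was not tested. A varying ratio does not tell whether transcripts come from the same cells.

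Scatter within groups was set beside genes of like level. The SD of the deviations was 0.128 for Aqp1, above 73.7% of 1281 genes of like level, and 0.175 for Tmem72, above 88.9% of 2998. It was 0.309 for Kcnj13, above 71.7% of 1709 genes, and 0.813 for Ttr, above 93.4% of 1657. Ttr thus scattered most of the 4, with a median of 0.231 among its like-level genes. For Aqp1 the coefficient of variation was 4.57% in controls, where counting alone gives 1.64%, and 11.1% in iKO, where it gives 1.89%.

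The genes whose deviations were most like those of Aqp1 were Ldha (r = 0.93), Sec13 (0.92), Khk (0.92), Spsb2 (0.92), Tpi1 (0.91), Emid1 (0.91), Cactin (0.91) and Pfkm (0.91), over 12 libraries that all these genes share. The Aqp1 deviation was largest in size in iKO 2 (-0.31), which can weigh heavily in r, and r without iKO 2 was not computed for them. These 8 are the highest of 16636 other genes and were selected as such. In the same order, Ttr stood at place 6316, Tmem72 at 10766 and Kcnj13 at 13993. For Ttr the most alike were Serpina3g (0.92), Cd2bp2 (0.92), Eef1g (0.85), Ube2d1 (0.83), Tent5b (0.79), Abhd11 (0.79), Pofut2 (0.78) and Mettl5 (0.78). Neither group of 8 holds another of the 5 members. With 8 places among so many genes this was likely beforehand, and Folr1, not tested, could not enter. Nothing is read from it.

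Of 22 other choroid plexus genes, 16 were tested and none passed in either direction (edgeR). Of these, 6 had an unadjusted p under 0.05, where 10.9% of all genes did, and DESeq2, which called 2.04% of all genes, called 2 of them, Wdr86 and the ageing-linked co-receptor gene Kl, both lower in iKO. Their median log2 fold change was -0.08, with 10 of 16 below 0, where all genes had a median of 0.00 and 49.5% below 0. The smallest adjusted p were those of Wdr86 (-0.84 ± 0.182, adjusted p = 0.0746), with control and iKO levels of 2.71 ± 0.359 and 1.505 ± 0.386 CPM, and of Car12, a membrane carbonic anhydrase (0.74 ± 0.187, adjusted p = 0.120). These 2 pointed in opposite directions. The list summed to 184 to 219 CPM in controls and 172 to 213 CPM in iKO, with the largest share from Slc4a2, a widely made anion exchanger at 98.1 ± 5.67 and 95.2 ± 9.06 CPM. All 22 genes had a read in at least 1 library. Otx2, the transcription factor that specifies the epithelium, was at 0 in 2 iKO libraries and reached 1.54 CPM in control 3.

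Several genes of that list peaked in the same libraries, a pattern picked out after the values were seen. Clic6, an intracellular chloride channel family member, reached 18.1 CPM in control 3 and 18.8 CPM in iKO 6, where the lowest control held 3.64 CPM. Of the 22 genes, 7 had both their highest control value in control 3 and their highest iKO value in iKO 6. The share of all genes that did so was not computed, and 2 of 11 other aquaporins did. So did 6 of 8 ependymal genes, whose sum was 117 CPM in control 3 and 146 CPM in iKO 6 against 40.8 to 69.8 CPM elsewhere. Aqp1, at 214 and 146 CPM in these libraries, lay near the mean of its group in both. The other members did not peak in both libraries either. Tmem72 was highest of the controls in control 3 (72.9 CPM) but was 47.1 CPM in iKO 6. Kcnj13 was 2.10 CPM in control 3 and 0.463 CPM in iKO 6, its lowest library. Ttr was 3.52 and 0.823 CPM, and Folr1 0.185 and 0.0514 CPM. Without control 3, control 6 and iKO 6, a set chosen after the values were seen, the Aqp1 log2 fold change was -0.55 and that of Ttr -1.89.

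Among 11 other aquaporins, 3 were tested and none passed in edgeR or DESeq2, nor at an unadjusted p under 0.05 in edgeR. Aqp4, the water channel of astrocytes and satellite glia, was at -0.45 ± 0.348 on the log2 scale (edgeR, adjusted p = 0.690), from control and iKO levels of 89.0 ± 41.9 and 65.0 ± 25.6 CPM. Aqp5, known from gland epithelium, had 1.29 ± 0.769 (adjusted p = 0.589), from 1.74 ± 2.60 and 3.34 ± 4.26 CPM. Aqp5 was highest in control 3 and in iKO 6, and its value was 2.25 without the former and 0.46 without the latter. That of Aqp4 was -0.25 without control 6 and -0.67 without iKO 6.

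Other cells that make Aqp1 were read from lists of their markers, where 10.9% of all genes had an unadjusted p under 0.05. Endothelial genes had 12 of 12 tested and none past the threshold (1 at an unadjusted p under 0.05, 0 in DESeq2), with 11 of 12 below 0 and a median log2 fold change of -0.10. Their sum ran from 131 to 175 CPM in controls and from 111 to 191 CPM in iKO. Cdh5, the endothelial cadherin, was at -0.46 ± 0.150 (edgeR, adjusted p = 0.260), and Esam, an endothelial adhesion molecule, at -0.18 ± 0.124 (adjusted p = 0.653), or -0.025 without control 2 and -0.27 without control 1. None of the 12 was at 0 in all libraries, and their part in the Aqp1 result was not tested.

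Mural cell genes (7 of 8 tested, none passed in edgeR or DESeq2, 2 at an unadjusted p under 0.05, 3 below 0, median 0.03) summed to 197 to 231 CPM in controls and 179 to 263 CPM in iKO. Rgs5, a pericyte regulator of G protein signalling, was at -0.14 ± 0.059 (edgeR, adjusted p = 0.412). Pdgfrb, the pericyte growth factor receptor, was at -0.19 ± 0.083 (adjusted p = 0.423). Red cell genes (7 of 7 tested, none passed in edgeR or DESeq2, 0 at an unadjusted p under 0.05, all 7 below 0, median -0.99) summed to 915 CPM in control 6 and to 24.5 to 196 CPM in the other 11 libraries. Control 6, the richest in red cell RNA, had 206 CPM of Aqp1, within the range of the other controls, and the lowest Tmem72 of the controls.

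Nociceptor genes (15 of 15 tested) included 1 that rose and 2 that fell (8 at an unadjusted p under 0.05, 5 called by DESeq2), with a median log2 fold change of -0.08. Over all genes, 0.379% passed in either direction, 10.9% had an unadjusted p under 0.05 and DESeq2 called 2.04%. Calcb, the gene of beta-CGRP, rose by 0.63 ± 0.069 (edgeR, adjusted p = 0.00166), and Grik1, a kainate receptor subunit, fell by 0.63 ± 0.079 (adjusted p = 0.0045). The list summed to 4115 to 4999 CPM in controls and 3885 to 4702 CPM in iKO. General sensory neuron genes (12 tested, none passed in edgeR or DESeq2, 1 at an unadjusted p under 0.05, 5 below 0, median 0.01) summed to 14162 to 17635 and 14840 to 17757 CPM. The part of neurons in the Aqp1 result was not tested.

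The list of the meningeal barrier and fibroblasts, tissue that encloses the ganglion, had 3 of 14 genes past the threshold, all lower in iKO, where 0.379% of all genes passed in either direction. An unadjusted p under 0.05 was found for 11 of 14, against 10.9% of all genes. DESeq2 called 9, against 2.04% of all genes, and of these Ogn was higher in iKO and the others lower. Slc13a4, a sulfate carrier, fell by 0.95 ± 0.155 (edgeR, adjusted p = 0.0191), and the organic anion carriers Slc22a8 and Slc22a6 fell by 1.12 ± 0.209 (adjusted p = 0.0440) and by 1.10 ± 0.210 (adjusted p = 0.0476). These carriers are also known from choroid plexus. In the list 13 of 14 values were below 0, with a median of -0.78, and it summed to 2271 to 3973 CPM in controls and 1716 to 2978 CPM in iKO, with no marker at 0 in all libraries. Its part in the values of the 5 genes was not tested.

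Glial lists had 1 call. Among all genes, 0.379% passed in either direction, 10.9% had an unadjusted p under 0.05 and DESeq2 called 2.04%. Schwann cell genes (10 tested, 1 higher, 4 at an unadjusted p under 0.05, 4 called by DESeq2, median 0.10) summed to 8428 to 16136 CPM in controls against 10108 to 12972 CPM in iKO, and Pmp22, a myelin protein, rose by 0.36 ± 0.057 (edgeR, adjusted p = 0.0180). Satellite glia genes (8 tested, none passed in edgeR or DESeq2, 2 at an unadjusted p under 0.05, median -0.05) summed to 3501 to 4165 and 3269 to 4479 CPM. Genes of oligodendrocytes and astrocytes (9 tested, none passed in edgeR or DESeq2, 2 at an unadjusted p under 0.05, all 9 below 0, median -1.03) summed to 118 to 2530 CPM in controls and 124 to 848 CPM in iKO. Ependymal genes (7 of 8 tested, none passed in edgeR or DESeq2, 0 at an unadjusted p under 0.05, none below 0) had a median of 0.61. Liver genes, included because liver makes Ttr, summed to 0.360 to 1.86 CPM over the 12 libraries; none of 8 passed the filter, and Fgb was at 0 in all libraries.

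**Figure D4:**
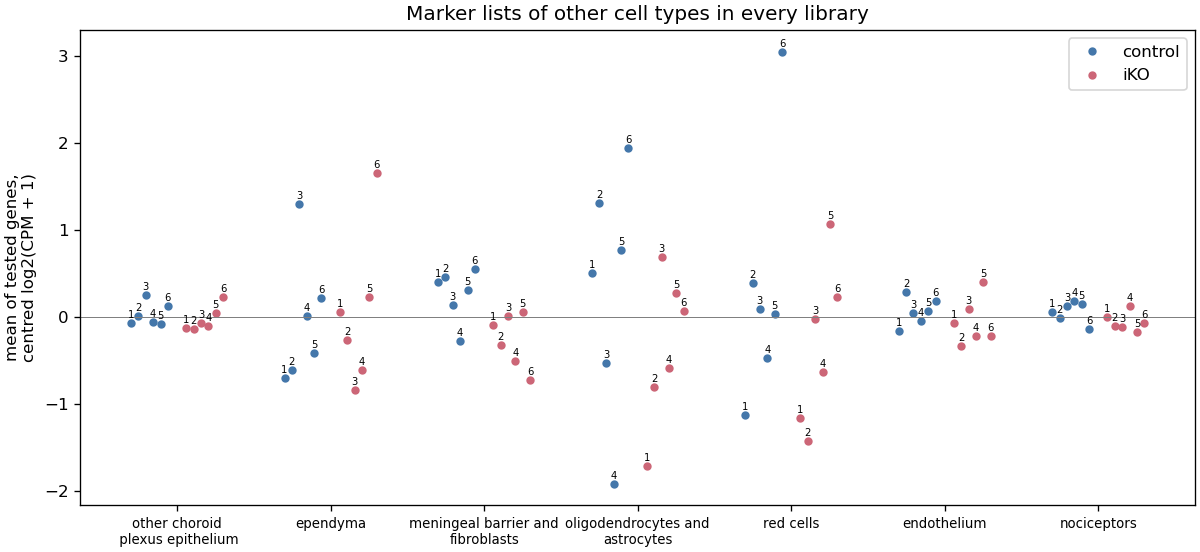
Mean over the tested genes of 7 marker lists (y axis, log2 of CPM + 1, centred on each gene's mean over the 12 libraries) in each control and iKO library. Points are libraries marked by replicate number. The ependymal list is highest in iKO 6 and control 3, and the red cell list in control 6. The choroid plexus list is also highest in control 3 (0.25) and iKO 6 (0.23), at smaller deviations.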

How the data were processed

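Bulk RNA-seq of trigeminal ganglia from 12 mice was used, as read counts per gene deposited by the authors, raw and not normalized. Per the labels' protocols, polyadenylated RNA went into TruSeq libraries without strand information. GRCm39, featureCounts 2.0.1, STAR 2.7.8a and bcl2fastq 2.20.0.422 are listed in the submitters' processing notes. For the annotation release and counting options, nothing is stated in these sources. Of 55416 identifiers, 52083 had a symbol in the reference tables, which are on GRCm38, and the other 3333 held 0.274% of counts. Promoters and their coordinates are RefSeq on GRCm38.p6. Exon lengths and overlaps are from GENCODE on GRCm38.

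The test was that of edgeR 4.0.16 (R 4.3.3, filterByExpr by group, TMM factors 0.969 to 1.02, quasi-likelihood test, sex as covariate), with p-values adjusted by Benjamini-Hochberg over the 16637 genes kept and a threshold of 0.05. CPM are TMM-normalised, and intervals are 95%. The replicate sets were contrasts of a single fit over all libraries, with 1 shared dispersion estimate per gene. Within-group correlations used log2(CPM + 1), a pseudocount of 1, with 100000 two-sided permutations within groups. Libraries of a group were not copies of each other: chi-square per degree of freedom was 7.62 to 29.4 over 30 pairs. The tests were tried on simulated data. DESeq2 1.42.0, other scaling, no filter, other covariates, a replicate block, subsets and leaving out each library were the alternatives.

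The members, the 13 marker lists and the tests were chosen with earlier results of these data known. Genes named beyond the members are, per list, those past the threshold, up to 4, otherwise those with the smallest p, and the 8 genes most like Aqp1 and Ttr at a mean of at least 1 CPM, without predicted genes and clone names. Some genes the rule takes in lists away from the members are not reported here.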

Additional observations from a re-analysis of the deposited data

How the results depend on the processing

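What shared replicate numbers mean is not stated in the labels, and the main fit treated the libraries as unpaired. The correlation of deviations given next cannot exclude a shared litter, day or batch. The correlation of same-numbered libraries ran from -0.410 to 0.363, was over 0.1 in 4 of 6 pairs, and no control library correlated best with the iKO library of its number. With a replicate block the calls were 15 in all 12 libraries and 3 in replicates 1 to 4. The male against female values reversed there to 0.47 for Tmem72 and 0.28 for Ttr. With that block, sex differs only within replicate 3 (control 3 male, iKO 3 female). The blocked sex values thus rest on those libraries, and nothing is read from the reversal.

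Counts of called genes moved with the processing. In all 12 libraries 63 genes were called, against 138 without the filter, 332 with DESeq2, 28 in tamoxifen-injected animals only and 20 without control 3, control 6 and iKO 6 (chosen after seeing the data). Leaving out 1 library gave 23 to 88 calls. Removing control 1 left 27, removing control 2 left 23, dropping control 3 left 33 and dropping control 5 left 29. Removal of iKO 1 left 24, of iKO 5 left 32, and of iKO 6 left 35. In replicates 1 to 4 the count was 19, with 621 without the filter, 137 with DESeq2 and 2 to 18 without 1 library, the lowest without iKO 4. In replicates 5 and 6 it was 1, with 2 under DESeq2 size factors, 1014 without the filter, 70 with DESeq2, 2 without the sex covariate and 1 to 26 without 1 library, the highest without iKO 6. For the difference between the sets it was 0, with 578 without the filter, 5 with DESeq2 and 0 to 15 without 1 library, the highest without iKO 6. For male against female it was 18, with 33 without the filter, 50 with DESeq2 and 11 to 15 without 1 library. The cause was not tested.

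The Aqp1 log2 fold change in all 12 libraries ran from -0.56 to -0.49 over 19 alternatives. Of these, 19 put Aqp1 past the threshold, 3 Tmem72, 1 Kcnj13 and 0 Ttr. Of 17 alternatives in replicates 1 to 4, 8 put Aqp1 past it, 1 Tmem72, 0 Kcnj13 and 1 Ttr, and of 17 in replicates 5 and 6, 2 put Aqp1 past it, 0 Tmem72, 1 Kcnj13 and 0 Ttr. These alternatives include runs that left out a library of the other replicate set. Among runs without a library of replicates 1 to 4, Aqp1 passed in that set only without iKO 1 or iKO 2 (edgeR, adjusted p = 0.0478 and 0.0187). The genes were chosen on the contrast of iKO and control, so no stability is read from these counts.

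The correlation of Aqp1 with Tmem72 reversed to 0.023 with group and sex removed and to 0.13 without iKO 2. It reversed to 0.23 without the 2 libraries whose Aqp1 deviations were farthest from the median deviation. The correlation of Aqp1 with Ttr reversed to -0.023 without iKO 2. That with Folr1 reversed to -0.27 without the 2 farthest libraries and to -0.031 without iKO 5. Leaving out 1 library gave -0.39 to 0.13 for Tmem72, -0.57 to -0.11 for Kcnj13, -0.023 to 0.30 for Ttr and -0.031 to 0.36 for Folr1. The difference between sets reversed for Ttr to -0.29 without control 2 and -0.18 without iKO 6, in a range of -0.29 to 1.45 over the libraries left out, and for Aqp1 to -0.012 without iKO 5, in a range of -0.012 to 0.14. Ttr male against female reversed to 0.019 without control 2 (range -1.02 to 0.019). Tekt4 reversed to -0.17 without iKO 6 (-0.17 to 1.42) and Hba-a2 to 0.080 without control 3, control 6 and iKO 6.

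Kcnj13, Ttr and Folr1 rest on as few as 9, 7 and 1 reads in a library, which limits their precision.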
